A study of Penicillium oxalicum with 18 samples.

Results

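The genes described here are 29 of the 9226 PDE_ locus tags of the filamentous fungus Penicillium oxalicum. Their transcripts were much higher in the nag3 deletion strain on N-acetylglucosamine (GlcNAc) than in any other group, though not always low elsewhere. They were picked on the measured values themselves. For each group the mean FPKM of its libraries plus 1 was taken to the log2 scale, and the deletion on GlcNAc had to lie at least 3 above each of the other 5 group means. FPKM is the number of fragments mapped to a gene, scaled by gene length and library size. Every difference between the deletion on GlcNAc and another group is therefore a description of the choice and carries no test. Tests are given only for comparisons among the other 5 groups. Their fit still held the deletion-GlcNAc libraries, which entered the filter and the shared estimate of the spread.

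The series holds 18 libraries of mycelium in 6 groups of 3. Both strains, the wild type 114-2 and the nag3 deletion strain, were pre-grown for 24 h at 30 °C on 2% glucose and then moved for 24 h to a modified Mendal's medium. That medium held 2% glucose, 2% GlcNAc, or 1% bran with 1% microcrystalline cellulose (called bran-cellulose here). All groups thus share the glucose pre-culture, and the labels do not say how many deletion transformants were used, how the deletion was made or whether replicates were separate cultures, so the p-values below reflect library-to-library spread, possibly technical only. Each library's FPKM summed to between 920824 and 1083828, and Pearson correlations between replicates, across genes on log2(FPKM + 1), lay between 0.963 and 0.990. Because no identifier is labelled nag3, the level of the deleted gene is not given here.

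GlcNAc is the sugar unit of chitin, a structural polymer of the fungal cell wall, and is released when walls or insect cuticle are broken down. In the yeast Candida albicans, where its use is best known, the sugar is taken up by a transporter, phosphorylated, deacetylated and deaminated, and so enters glycolysis with the release of acetate and ammonium. It also acts there as a signal that changes cell form. The locus tags below are not paired with gene names in the deposited table, and 0 of its 9261 identifiers matched the reference gene table of another strain, so no function is given for any of them.

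The 29 genes covered a wide range of abundance in the deletion on GlcNAc. Of these, 11 had a mean of at least 100 FPKM, 12 lay from 10 to 100 and 6 lay under 10. Their median mean level was 42.2 FPKM, beside 24.5 over all PDE_ tags in the same group. In the other 5 groups most were near or at 0: in the wild type on GlcNAc 16 of the 29 had a mean under 1 FPKM, and in each of the remaining 4 groups 17 to 20 did. In 13 of the 29, all 5 other group means were under 1 FPKM. Summed over the 29 genes, FPKM was 7520 ± 769 (SD, n = 3) in the deletion on GlcNAc, which was 0.756% of all FPKM, and the other group means lay between 142.5 and 469.4. The libraries are of whole mycelium, so fewer expressing cells and less RNA per cell cannot be told apart. The most abundant identifier of each library took 12.7% to 14.4% of all FPKM in the deletion-GlcNAc libraries and 2.50% to 9.86% in the others. Whether it was the same identifier in each library was not examined, and its part in these levels was not tested. PDE_01229 alone made up 39.5% of that sum, and without it the sum was 4553 ± 111 against group means of 115.1 to 182.0.

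**Figure D1:**
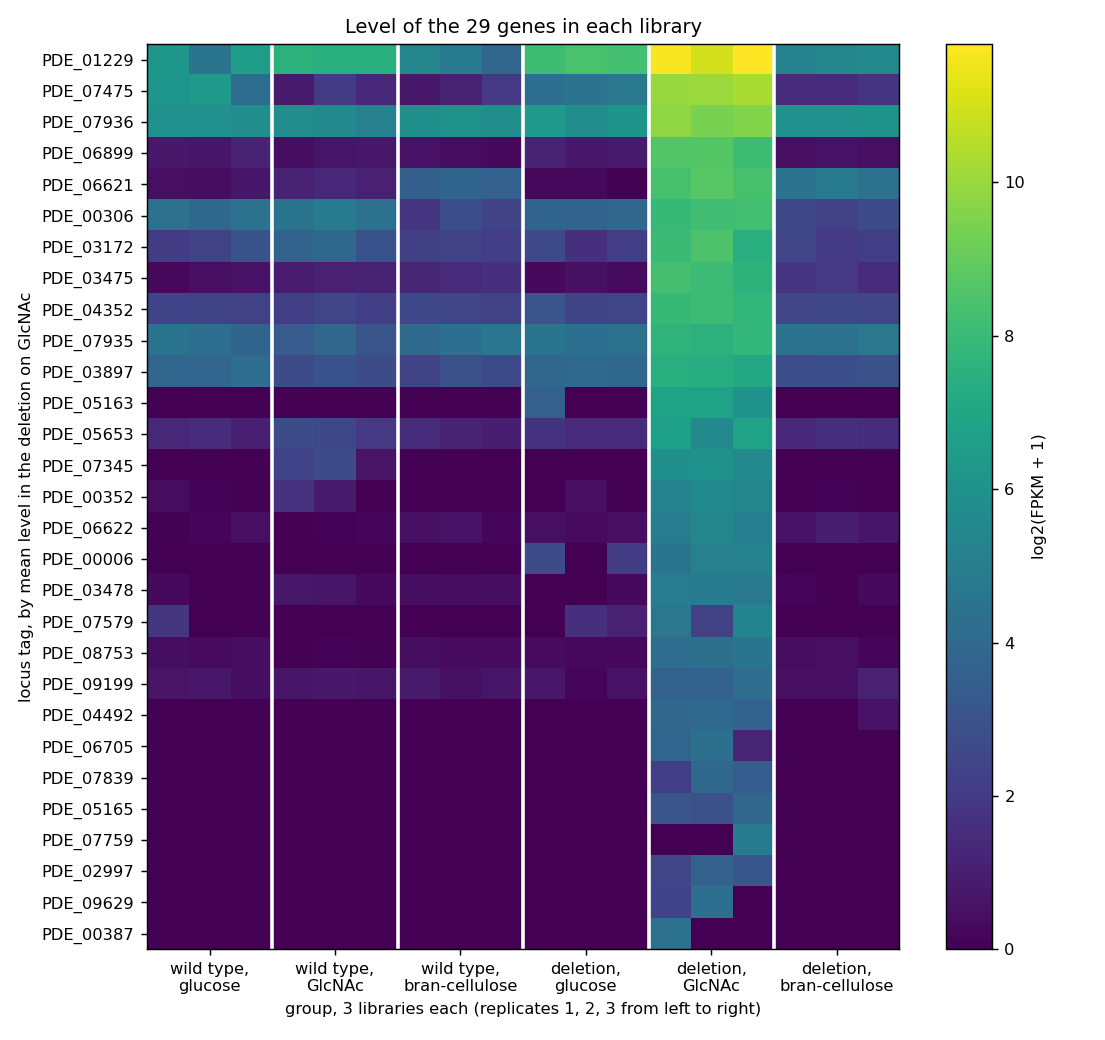
Level of each of the 29 genes (rows, by mean level in the deletion on GlcNAc) in each of the 18 libraries (columns, 3 per group), as log2(FPKM + 1) in colour. The deletion-GlcNAc columns are the brightest in each of the upper 22 rows. The lowest 7 rows are listed at 0 in the other 15 libraries, and 3 of them, PDE_07759, PDE_09629 and PDE_00387, are also at 0 in 1 or 2 deletion-GlcNAc libraries.

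In 26 of the 29 the lowest deletion-GlcNAc library lay above the highest of the other 15 libraries, and in 3 the libraries overlapped. The same separation was present in 15.7% of all PDE_ tags, and since the choice of genes used these values nothing is read from the difference. The same arithmetic with another group in place of the deletion on GlcNAc gave 19 genes for the wild type on GlcNAc, 19 for the deletion on glucose, 1 for the wild type on glucose and 0 for either strain on bran-cellulose. In the opposite direction, 18 genes lay at least 3 below each other group in the deletion on GlcNAc.

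PDE_01229 had the highest level of the 29 in the deletion on GlcNAc, rank 19 among all PDE_ tags there and rank 866 in the wild type on GlcNAc. It was at 3298, 2027 and 3577 FPKM in deletion-GlcNAc replicates 1, 2 and 3. In the deletion on glucose it was at 282.8, 340.4 and 305.1, in the wild type on GlcNAc at 189.7, 175.8 and 173.3, and in the wild type on glucose at 75.02, 22.55 and 97.73. Its bran-cellulose libraries were lower, with means of 41.6 ± 5.24 in the deletion and 27.4 ± 13.5 in the wild type (SD, n = 3). It was present in every library, and its groups formed a ladder in which the deletion on GlcNAc stood 9.59 times above the next.

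PDE_07475 was at 1025, 1040 and 1255 FPKM in the deletion on GlcNAc and at 0.82, 3.06 and 1.46 in the wild type on the same sugar. Its next highest group was the wild type on glucose, with 71.9, 82.8 and 17.8, of which replicate 3 was far below the other libraries of its group. In the deletion on glucose it was at 18.7, 21.8 and 25.2. Bran-cellulose gave 2.88 FPKM or less in all 6 libraries. This gene was therefore at its lowest on GlcNAc and bran-cellulose in the wild type. Its highest level, on GlcNAc in the deletion, was required by the choice.

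PDE_07936 and PDE_07935, which carry consecutive locus tags, were above 0 in every library. PDE_07936 was at 921.9, 681.7 and 795.4 FPKM in the deletion on GlcNAc, and between 34.0 and 81.7 in the other 15 libraries. PDE_07935 was at 200.7, 191.8 and 226.6, and between 7.78 and 24.5 in the other 15. For both, the lowest deletion-GlcNAc library was about 8 times the highest other library (8.35 and 7.84). The other 5 group means ran from 45.8 to 68.2 for PDE_07936 and from 10.3 to 22.1 for PDE_07935, in both with the wild type on GlcNAc the lowest.

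PDE_06899 showed the greatest separation of the 29. It was at 401.3, 413.2 and 282.5 FPKM in the deletion on GlcNAc, and at no more than 1.27 in any of the other 15 libraries, a margin of 7.57 on the log2(mean FPKM + 1) scale. PDE_03475 followed with a margin of 6.29, at 318.7, 274.8 and 198.4 against at most 2.91 elsewhere. PDE_04352 came next with 5.24, at 237.5, 268.7 and 221.4 against at most 7.60. These 3 genes were present at a low level in all 15 other libraries, so none rests on a group listed at 0.

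PDE_06621 was at 324.9, 424.8 and 328.2 FPKM in the deletion on GlcNAc. Its next highest group was the deletion on bran-cellulose, as for PDE_03475, PDE_07935, PDE_06622 and PDE_04492, 5 of the 29 in all. On bran-cellulose it was at 21.2, 27.4 and 20.5 in the deletion and at 10.8, 12.9 and 11.3 in the wild type. On glucose it did not pass 0.64 in any library of either strain, and in the wild type on GlcNAc it lay between 1.10 and 1.58. Its neighbour by tag number, PDE_06622, was at 31.4, 41.6 and 32.5 in the deletion on GlcNAc and at 1.00 or less elsewhere. On bran-cellulose it had means of 0.693 ± 0.267 in the deletion and 0.360 ± 0.171 in the wild type. The lowest deletion library was at 0.51 and the highest wild-type library at 0.50. This difference was not called (log2 difference 0.31, limma adjusted p = 0.787), and PDE_06622 was tested only because of its deletion-GlcNAc level.

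The other 3 genes above 100 FPKM were measurable in every other library. PDE_00306 was at 240.9, 285.8 and 296.6 FPKM in the deletion on GlcNAc, with 24.2 ± 4.40 in the wild type on GlcNAc and 18.56 ± 2.996 on glucose, and with 4.88 ± 0.866 and 4.32 ± 1.80 on bran-cellulose in the deletion and the wild type. PDE_03172 was at 264.2, 362.5 and 174.0, with 11.4 ± 4.14 in the wild type on GlcNAc and under 5 in each other group mean. PDE_03897 was at 170.5, 163.6 and 139.9, with equal levels on glucose in both strains (14.9 ± 2.34 in the wild type and 14.9 ± 1.05 in the deletion) and 5.30 to 6.20 in the other 3 groups. None of these overlapped with another group; among the 11 genes above 100 FPKM the widest replicate spread was that of PDE_03172, whose coefficient of variation was 35.3%.

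**Figure D2:**
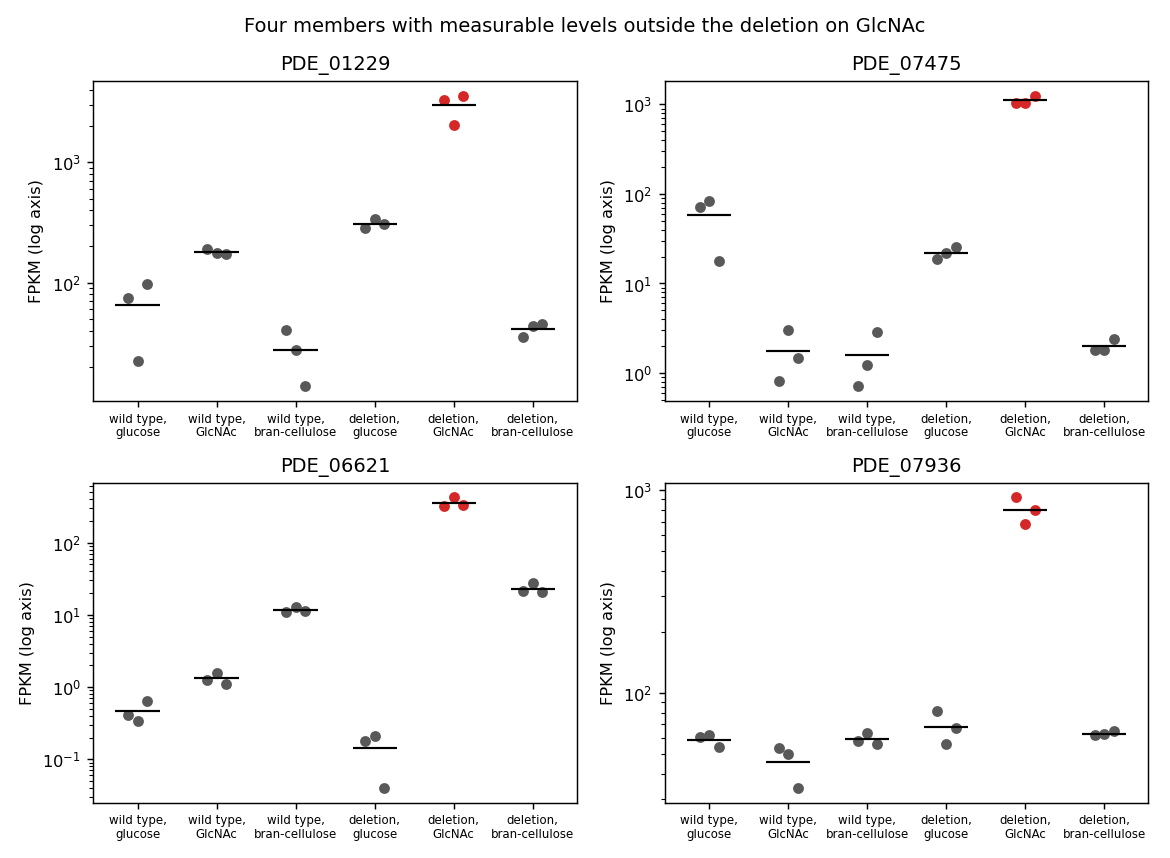
FPKM of 4 of the genes in each library (points, log axis) by group, with the group mean as a bar and the deletion on GlcNAc in red. PDE_01229 and PDE_07475 have intermediate glucose levels, PDE_06621 steps up on bran-cellulose in both strains (means 11.7 and 23.1 FPKM), and PDE_07936 has means of 45.8 to 68.2 in the 5 other groups.

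The 12 genes between 10 and 100 FPKM were mostly close to 0 elsewhere. PDE_05653 was at 101.8, 48.7 and 108.9 FPKM in the deletion on GlcNAc, with replicate 2 the lowest, and at 5.74, 4.98 and 2.87 in the wild type on GlcNAc. PDE_07345 was at 59.0, 63.2 and 45.6, at 4.18, 5.54 and 0.53 in the wild type on GlcNAc, and listed at 0 in the other 12 libraries. PDE_00352 was at 37.3, 47.1 and 42.3, at 2.26, 0.78 and 0 in the wild type on GlcNAc, and at 0.41 or less elsewhere. In these 3, as in PDE_00306, PDE_03172, PDE_03478 and PDE_09199, the wild type on GlcNAc was the next highest group, 7 of the 29 in all.

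In 8 of the 29 the next highest group was the deletion on glucose. PDE_05163 was at 114.5, 115.1 and 63.9 FPKM in the deletion on GlcNAc and above 0 in only 1 other library, replicate 1 of the deletion on glucose, with 11.1. PDE_00006 was at 22.3, 34.6 and 35.7, at 5.78, 0 and 3.11 in the deletion on glucose, and listed at 0 in the other 12 libraries. PDE_07579 was uneven, at 24.9, 4.06 and 39.1, and its replicate 2 lay only 1.53 times above the highest other library, a wild-type glucose library at 2.65. PDE_08753, PDE_03478, PDE_09199 and PDE_04492 were more even, with means of 20.3 ± 2.87, 28.1 ± 3.03, 13.95 ± 3.38 and 13.8 ± 1.60 FPKM, and at 1.14 or less in each of the other 15 libraries.

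A set of 7 genes was listed at 0 in all 15 other libraries, so no fold is given for them. Among these, 4 were above 0 in all 3 deletion-GlcNAc libraries: PDE_06705 at 13.5, 19.4 and 1.33 FPKM, PDE_07839 at 3.53, 15.02 and 9.73, PDE_05165 at 7.62, 6.73 and 13.9, and PDE_02997 at 4.51, 11.2 and 7.80. The remaining 3 rest on fewer libraries. PDE_07759 was at 27.0 in replicate 3 and listed at 0 in the other 2, PDE_00387 was at 21.0 in replicate 1 and listed at 0 in the other 2, and PDE_09629 was at 4.22, 18.8 and 0. Over all PDE_ tags 62 were above 0 in some deletion-GlcNAc library and listed at 0 in all 15 others, 10 of them in all 3. A 0 in a table without counts may be a failed estimate, and the number of reads behind these values is unknown.

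Replicate spread in the deletion on GlcNAc was wider for these genes than is usual there. The median coefficient of variation was 23.1% over the 29 and 18.1% over the 26 without overlap, beside 12.3% over the 6695 tags with at least 7 FPKM in that group, the least mean the choice allows. The highest value fell in replicate 1 for 5 genes, in replicate 2 for 13 and in replicate 3 for 11. PDE_07759 and PDE_00387 rest on 1 library each. When the genes were chosen with 1 deletion-GlcNAc library left out, the left-out library lay at least 3 above each other group mean for 22 of 29 genes (replicate 1), 19 of 26 (replicate 2) and 22 of 27 (replicate 3). Over all PDE_ tags 0.293%, 0.271% and 0.303% did so, which was 27, 25 and 28 tags. These tags include the chosen genes just counted, so nothing is read from the contrast. The other 5 groups were the same libraries in each case. The counts thus describe how alike the 3 deletion-GlcNAc libraries were and give no support for the choice. Each list was chosen anew, and the 29 chosen without replicate 1 shared 28 with the 29 described here. Without each of the 18 libraries in turn, 21 of the 29 met the criterion every time.

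At the edge of the criterion the margin changed little from gene to gene. Just inside it stood PDE_00387 (3.002), PDE_00006 (3.01) and PDE_09629 (3.12), and just outside PDE_02385 (2.98), PDE_05895 (2.97) and PDE_02146 (2.95). PDE_02146 was more abundant than most of the 29, at 99.4 FPKM in the deletion on GlcNAc against 11.95 in the next group.

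Comparisons among the other 5 groups, fitted with all 18 libraries, ask how the same genes responded to medium and genotype elsewhere. They were tested with limma on log2(FPKM + 1), and a call required a Benjamini-Hochberg adjusted p below 0.05, over the 8390 genes tested, together with a log2 difference of 1 or more in either direction. Of the 29 genes 26 passed the filter of 1 FPKM in 3 libraries, and 14 of them did so through the deletion-GlcNAc libraries only. The choice holds every group in these comparisons down, which limits how far they can differ, and between 5 and 8 of the 26 were listed at 0 throughout in each comparison. Nothing is read from calls among these 14, which were tested only because of the levels that chose them. With the settings above such calls were made for PDE_00006 and PDE_07345. The counts under these settings are also given over the 12 genes that passed the filter without the deletion-GlcNAc libraries.

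On bran-cellulose the deletion and the wild type gave 0 calls among the 26 by limma, beside 0.393% of all genes tested. The number with an unadjusted p under 0.05 was 1, and the share of all genes at that threshold was not counted. That gene was PDE_06621, which was 0.92 higher in the deletion on the log2 scale (SE 0.14, limma adjusted p = 0.00433) and missed the fold threshold. Over 14 alternatives its adjusted p ran from 0.00308 to 0.230, the highest with an offset of 0.1 FPKM. The median log2 difference over the 26 was 0.03, and it was 0.00 over all genes.

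On glucose 2 of the 26, or 1 of the 12, were called higher in the deletion and 0 lower, beside 4.91% and 6.14% of all genes tested. By limma 2 of the 26 had an unadjusted p under 0.05 with the lower level in the deletion. The share of all genes at that threshold was not counted, so nothing is read from this number. PDE_01229 rose by a log2 difference of 2.46 (SE 0.43, limma adjusted p = 0.000485), with all 3 deletion libraries above all 3 wild-type libraries. Its adjusted p ran from 0.000234 to 0.0211 over 14 alternatives, the highest in the fit of only the groups compared. PDE_00006, one of the 14, had an adjusted p of 0.0141 but was listed at 0 in the wild type and in deletion replicate 2. It was filtered out in the fit of the 15 other libraries, and its call ended without deletion-glucose replicate 1 or 3 (adjusted p up to 0.0740, from 2.26e-06 over 12 alternatives). PDE_07475 had a log2 difference of -1.09 and was not called (adjusted p = 0.0755). It was called without wild-type glucose replicate 3, the low library (-1.78, adjusted p = 0.000869, with 0.000869 to 0.288 over 14 alternatives). The median over the 26 was 0.00, against 0.09 over all genes.

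In the wild type on GlcNAc against glucose, 4 of the 26 (3 of the 12) were called higher and 2 (2 of the 12) lower, beside 11.4% higher and 14.7% lower over all genes tested. PDE_01229 rose by 1.69 (SE 0.43, limma adjusted p = 0.00344), PDE_05653 by 1.15 (SE 0.27, adjusted p = 0.00189) and PDE_03172 by 1.10 (SE 0.33, adjusted p = 0.00843). These 3 genes were thus higher on GlcNAc than on glucose in the wild type. That their levels there were far below those of the deletion was fixed by the choice. PDE_07345, one of the 14 and listed at 0 in all 3 glucose libraries, had an adjusted p of 0.000344, and was filtered out in the fit of the 15 other libraries. PDE_07935 was 0.75 lower on GlcNAc (adjusted p = 0.00447), short of the fold threshold. PDE_07475 fell by 4.21 (SE 0.45, limma adjusted p = 1.54e-06) and PDE_03897 by 1.19 (SE 0.14, adjusted p = 2.74e-06). In the deletion the choice made GlcNAc the highest medium for every gene, so nothing is read from the opposite direction there. The call of PDE_03172 ended without wild-type glucose replicate 1 or 2 or wild-type GlcNAc replicate 2 (log2 difference down to 0.89), and that of PDE_05653 without wild-type GlcNAc replicate 1 (0.99).

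In the wild type on bran-cellulose, again set against glucose, 1 of the 26 was called higher and 4 lower, all 5 among the 12, beside 10.8% higher and 7.94% lower over all genes tested. Under median-ratio scaling, which moved the median of all genes by -0.16, that background was 8.67% and 9.86%, with 5 of the 26 called under either scaling. PDE_06621 rose by 3.12 (SE 0.14, limma adjusted p = 3.34e-10). PDE_07475 fell by 4.31 (SE 0.45, adjusted p = 2.42e-06), PDE_00306 by 1.93 (SE 0.21, adjusted p = 3.41e-06) and PDE_03897 by 1.34 (SE 0.14, adjusted p = 1.79e-06). PDE_01229 fell by 1.11 (adjusted p = 0.0426), but this call ended in 6 of 14 alternatives, among them the fits without wild-type glucose replicate 1 or 3 and without wild-type bran-cellulose replicate 2 or 3 (log2 difference -1.73 to -0.70, adjusted p 0.000723 to 0.202 over the 14). This comparison, the preceding one and the glucose comparison of the strains share the wild-type glucose libraries.

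In the deletion on bran-cellulose against glucose, 2 of the 26 (2 of the 12) were called higher and 5 (4 of the 12) lower, beside 12.4% and 11.8% of all genes tested. PDE_06621 rose by 4.39 (SE 0.14, limma adjusted p = 3.81e-12) and PDE_03475 by 1.36 (SE 0.18, adjusted p = 1.12e-05), the latter from 0.313 ± 0.104 to 2.38 ± 0.546 FPKM. PDE_07475 fell by 2.93 (SE 0.45), PDE_01229 by 2.87 (SE 0.43), PDE_00306 by 1.29 (SE 0.21) and PDE_03897 by 1.14 (SE 0.14), each with a limma adjusted p of 9.72e-05 or less. PDE_00006, one of the 14 and listed at 0 in all 3 bran-cellulose libraries, had an adjusted p of 0.00782, and was filtered out in the fit of the 15 other libraries.

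**Figure D3:**
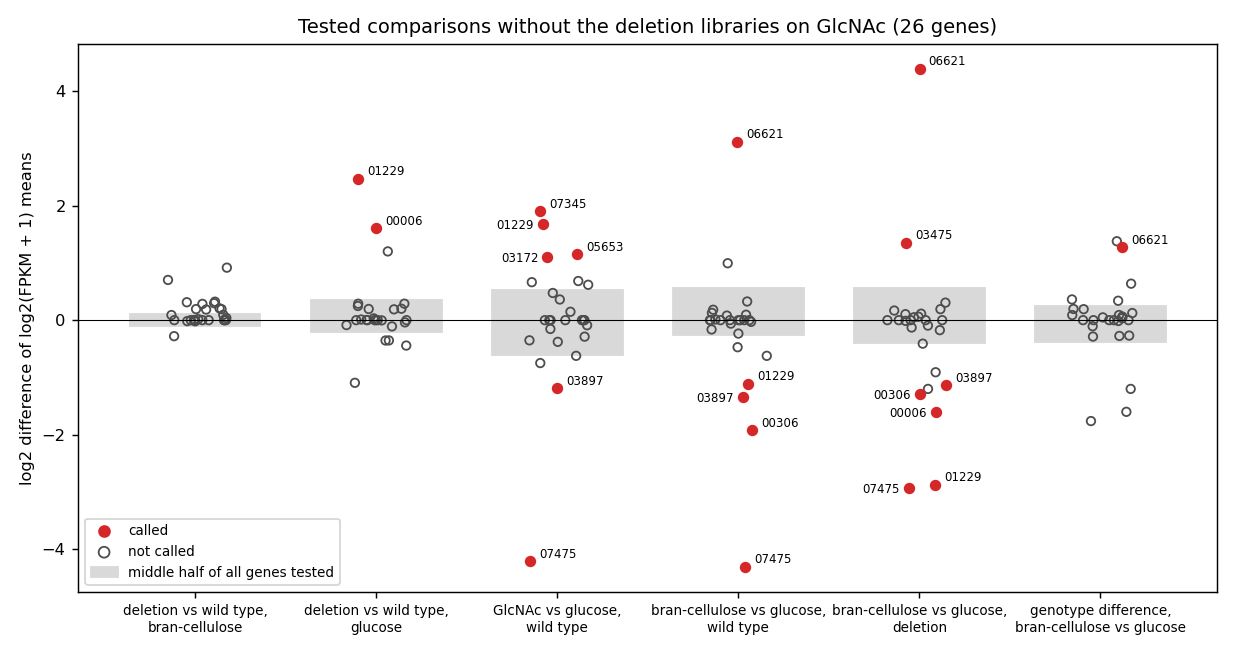
Points are log2 differences of the 26 tested genes in the 6 comparisons among the other 5 groups, fitted with all 18 libraries. Called genes are in red with the number of their locus tag. Grey spans the lower to the upper quartile of all 8390 genes tested. PDE_00006 and PDE_07345 were tested only because of their deletion-GlcNAc levels. No gene is called between strains on bran-cellulose, and PDE_06621 and PDE_07475 lie farthest from 0 in the comparisons of media, at 4.39 and -4.31.

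The genotype difference on bran-cellulose, set against that on glucose, was called for 1 of the 26, also 1 of the 12, higher for PDE_06621 by 1.27 (SE 0.20, limma adjusted p = 0.000490), beside 5.38% higher and 4.17% lower over all genes tested. On bran-cellulose all 3 deletion libraries of this gene lay above all 3 wild-type libraries, and on glucose all 3 lay below (0.04 to 0.21 against 0.34 to 0.64 FPKM). The glucose difference itself was not called (log2 difference -0.35, limma adjusted p = 0.0682). It was called with an offset of 0.1 FPKM (-1.26, adjusted p = 0.00252, with 0.00252 to 0.215 over 13 alternatives). Single libraries changed the count: it was 2 without wild-type glucose replicate 1, wild-type bran-cellulose replicate 3 or deletion-glucose replicate 2, and 3 without wild-type glucose replicate 3, where PDE_01229 (-2.17) and PDE_07475 (2.06) were added.

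Some of the genes lie next to each other by locus tag number, which stands in for order here as the table has no coordinates. Of the 29 genes 4, or 13.8%, had another of them at the adjacent number, in the pairs PDE_06621 with PDE_06622 and PDE_07935 with PDE_07936. Over all 9226 tags, 0.564% had one of the 29 at an adjacent number. Allowing a difference of 2 added the pair PDE_05163 and PDE_05165 and gave 6 of 29, or 20.7%, against 1.08% of all tags. PDE_03475 and PDE_03478, 3 numbers apart, were singled out after their values were seen. No run of 3 or more members was found.

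Within each pair the first gene named by tag number was not always the more abundant. PDE_06621 exceeded PDE_06622 in the deletion on GlcNAc (359.3 ± 56.8 against 35.2 ± 5.57 FPKM), PDE_05163 exceeded PDE_05165 (97.8 ± 29.4 against 9.41 ± 3.90) and PDE_03475 exceeded PDE_03478 (264.0 ± 60.9 against 28.1 ± 3.03), while PDE_07935 was below PDE_07936 (206.4 ± 18.1 against 799.6 ± 120). Among 41 other tags within 5 numbers of these pairs, 0 had a margin of 1 or more, and the highest was 0.88. Over all 9226 tags 81 had a margin of 2 or more, and the number with 1 or more was not counted. Nothing is therefore read from the absence of such tags around the pairs. PDE_05164, which lies between its pair, was at 1.08 ± 0.926 in the deletion on GlcNAc and at 3.13 in the wild type on GlcNAc. PDE_07934, next to PDE_07935, was at 0.967 ± 0.129 in the deletion on GlcNAc and at 88.6 in the deletion on glucose. In the wild type it was likewise low on GlcNAc, at 0.383, against 19.0 on glucose. How reads shared by overlapping neighbours were counted is not given in the sources used, so genes that overlap could share part of a value.

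**Figure D4:**
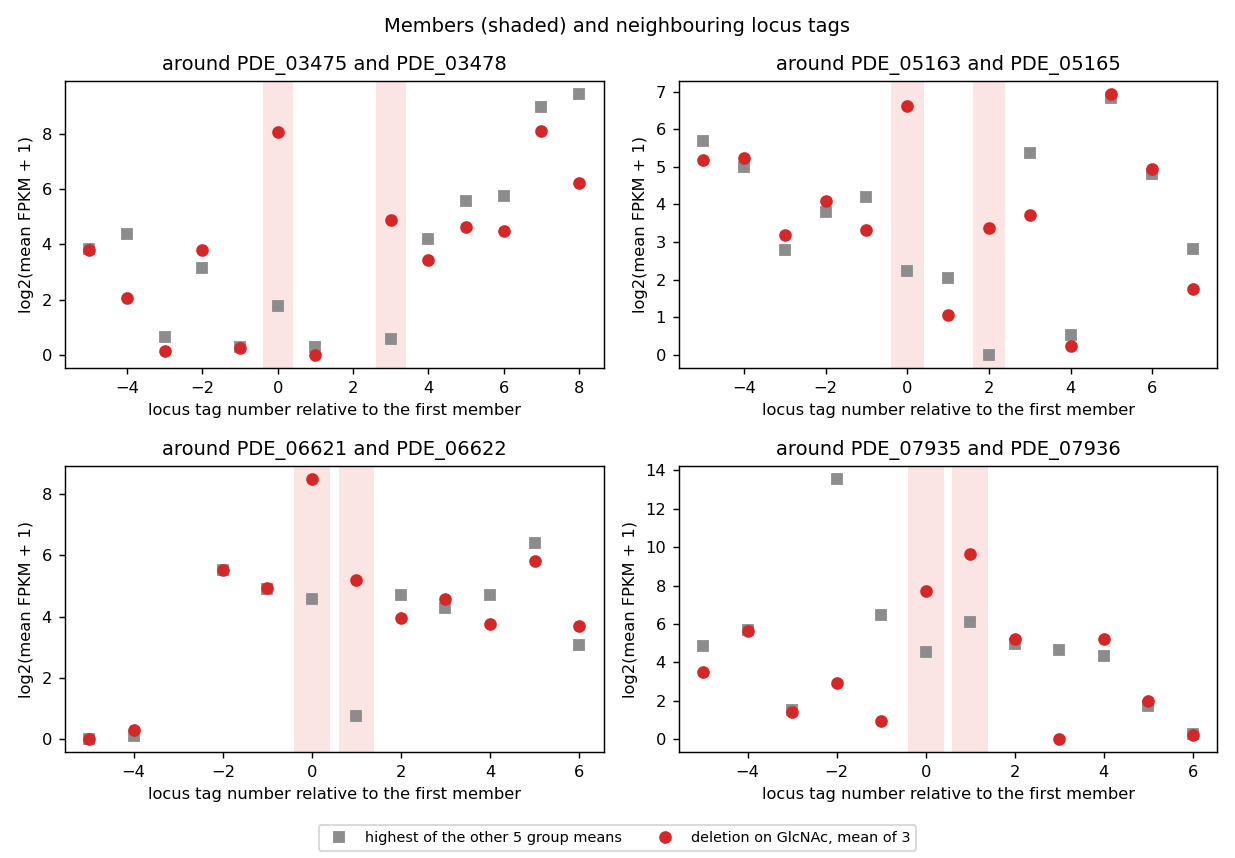
Level as log2(mean FPKM + 1) of the paired genes (shaded) and of the tags within 5 numbers of them, by locus tag number relative to the first of the pair, for the deletion on GlcNAc (red circles) and the highest of the other 5 groups (grey squares). Red stands clear above grey in the shaded columns, while in the other columns its margin does not pass 0.88.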

How the data were processed

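Transcripts were measured in 18 libraries, 6 groups of 3, matched to samples by column name. The authors deposited FPKM values with 2 decimals for 9261 identifiers, per the file headers; the sources used here do not state aligner, counter, build or annotation. Per the labels' protocol these were NlaIII and MmeI tag libraries, for which division by length is not stated; that division cannot alter a gene's order across libraries but sets levels between genes and the weight of the offset of 1 FPKM. Depth in reads is unknown.

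Values were used unscaled. A gene entered the tests if 3 or more libraries reached 1 FPKM (8390 did, 871 did not). Two-sided limma tests (version 3.58.1, R 4.3.3) used log2(FPKM + 1), a mean for each group, all 18 libraries and an intensity trend; the shared spread includes groups listed at 0, where it is 0. The procedure was tested on simulated data in which only more abundant genes were changed, so the outcome does not speak to genes near 0. "Rose" and "fell" are used of called genes. Figures used matplotlib 3.10.9.

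The genes, the comparisons and the rule for named genes were chosen with earlier results of these data known. By that rule the 15 most abundant, the leading called genes of each comparison, those at the edge of the criterion, those with the greatest margins and those with overlapping libraries were named; the remaining members were added as members. Lists by annotated function could not be formed. Alternatives covered the offset, filter, scaling, fold threshold, samples fitted, replicate block and each library left out. No pairing was used: among 45 pairs of same-numbered libraries, correlations of deviations from group means ran from -0.171 to 0.294, and 6 passed 0.1.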

Additional observations from a re-analysis of the deposited data

Results flagged for a closer look

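PDE_06621 was flagged because its genotype difference was not the same in the media compared. Set against glucose, the difference on bran-cellulose was higher by 1.27 on the log2 scale (limma adjusted p = 0.000490, 0.000391 to 0.00287 over 20 alternatives). Its glucose levels did not pass 0.64 FPKM, where the offset of 1 FPKM holds the log2 difference down. Groups of 3 libraries are too small for the check on single outlying samples.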

How the results depend on the processing

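The number of genes meeting the criterion was 29, and was 61 with an offset of 0.1 FPKM, 81 at a margin of 2, 10 at a margin of 4 and 13 when the lowest deletion-GlcNAc library was set against the highest of the other 15. It was 26 to 31 without single libraries, 26 under median-ratio scaling, 30 under quantile normalization and 30 with medians. The share with an adjacent member was 4.94% at a margin of 2, beside 1.56% of all tags, and 27.6% within 5 numbers, beside 2.60% of all tags, the latter chosen after seeing the data. With an offset of 0.1, calls numbered 10 for GlcNAc against glucose in the wild type, beside 1031 higher and 1366 lower among all 8390 genes tested. They numbered 8 for bran-cellulose against glucose in the wild type, beside 996 higher and 737 lower. Without the fold threshold, GlcNAc against glucose had 11, beside 2583 higher and 2670 lower. The strains on bran-cellulose then had 1, beside 33 higher and 27 lower. These counts are over the 26 and include PDE_07345, PDE_03478, PDE_08753 and PDE_06899. Nothing is read from those 4, which passed the filter through the deletion-GlcNAc libraries only. For the strains on glucose, calls fell to 1 when fitted on the 15 libraries outside the deletion on GlcNAc or on the 6 compared libraries alone, where PDE_00006 was filtered out; on the 15 libraries GlcNAc against glucose in the wild type had 5 and bran-cellulose against glucose in the deletion had 6, without PDE_07345 and PDE_00006. Without single libraries, calls ran from 1 to 3 for the strains on glucose and for the genotype difference between media, 5 to 7 for GlcNAc and 4 to 6 for bran-cellulose against glucose in the wild type, 7 to 8 for bran-cellulose against glucose in the deletion, and stayed at 0 for the strains on bran-cellulose. Counts over the 26 here include PDE_00006, PDE_07345, PDE_00352 and PDE_05163, which also passed the filter through the deletion-GlcNAc libraries only. Median-ratio scaling and quantile normalization left all 21 calls of the tested comparisons in place, though under quantile normalization the all-gene median for bran-cellulose against glucose shifted by -0.14 in the wild type and -0.11 in the deletion. The samples share only a replicate number (8 of 18 libraries correlated best with their own number), and the replicate block changed no count of calls: 0, 2, 6, 5, 7 and 1 in the order of the report. Low genes are limited by the unknown read depth; the cause of the changes in count was not tested.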
